A study of Arabidopsis thaliana with 23 samples.

Results

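The transcripts described here are those that differed on Arabidopsis ATH1 arrays between 3 h on dexamethasone (Dex) and 0 h in both the SHR-inducible and the SCR-inducible line. The comparison took 4 arrays at 3 h against 4 arrays at 0 h, which are 8 of the 23 arrays of the series. Each group held 2 arrays of the SHR-inducible line and 2 of the SCR-inducible line, labelled as first and second biological replicate, and line entered the fit as a block. All 8 arrays came from Columbia seedlings grown for 5 days, and the 3 h seedlings had been moved to medium with 1 µM Dex. The remaining 15 arrays cover both lines at 1, 6 and 12 h, and cells sorted with a CYCD6 promoter marker, the cortex/endodermis initial (CEI) cells.

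Some features of the material limit what the comparison can show. The sources disagree on the tissue: the series text and source names give cells sorted by J0571, an enhancer trap active in root ground tissue, whereas the protocol describes cut roots, many per replicate, put into extraction buffer. RNA was amplified in 2 cycles before labelling, per the labels. The promoter of each inducible construct and the background of each line, mutant or wild type, are stated by none of the sources at hand. Every time point after 0 h was on Dex in both lines. Effects of the induced factor, of Dex itself, of moving seedlings to a new plate and of the time passed therefore cannot be told apart. In such bulk samples fewer cells of a type and less RNA per cell cannot be told apart either.

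SHORT-ROOT (SHR) and SCARECROW (SCR) are GRAS-family transcription factors of the root. SHR protein is made in the stele and moves outward into the adjoining cell layer, where it acts with SCR, itself a target of SHR, to specify the endodermis and to drive the asymmetric division that separates cortex from endodermis. Zinc finger proteins of the IDD family such as JKD bind both factors and limit SHR movement, and the D-type cyclin CYCD6;1 is a known target at the CEI daughter cell. Taking both lines together asks which genes change in both within hours of the move to Dex. The design does not separate induction of either factor from the treatment itself, nor direct from indirect effects. SHR, SCR and CYCD6;1 were not named by the probe set annotation used here, so the induced genes could not serve as a check of the labels.

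Values are MAS5 signals, an arbitrary brightness scale set to a common mean on each array, and differences are 3 h minus 0 h on the log2(signal + 10) scale, which understates the change of dim genes. Median signal on the 8 arrays ran from 67.4 to 75.1 and correlation across probe sets between any pair of them from 0.898 to 0.966. The SHR 0 h replicate 2 array stood lowest, with a mean correlation of 0.918 with the other arrays, where the rest had 0.930 to 0.946. The median difference over all 15983 tested probe sets was −0.03.

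A single transcript, AT1G05370, changed at 3 h by the planned test (limma, line as a block, Benjamini-Hochberg adjusted p under 0.05 over all tested probe sets). That is 0.00626% of the tested probe sets, with 0% called lower. At unadjusted p under 0.05 there were 612 (3.83%), of which 349 were higher (2.18%) and 263 lower (1.65%) at 3 h. The share of 3.83% is no larger than such a threshold would pass if no probe set changed. The titles number the arrays, but the labels do not say whether same-numbered arrays were grown or processed together. Deviations of same-numbered arrays correlated at 0.465 (SHR) and only 0.16 (SCR). With line and replicate number as a block the same values gave 20 calls (0.125% of the tested probe sets), 17 higher (0.106%) and 3 lower (0.0188%), beside 1360 at unadjusted p under 0.05 (8.51%). These 20 calls hold only if the numbers pair the arrays. Of these 20, 12 carried the name of a single gene, 9 higher and 3 lower, and 8 did not. Throughout, the first adjusted p is from limma with line as a block and the second is with the replicate block.

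All 20 had the same sign in both lines, with absolute differences of 1.11 to 2.91 (SHR) and 1.18 to 2.58 (SCR). The fit that called them takes a line difference as residual spread, so its selection favours like signs and sizes in both lines. For 19 of the 20 (0.119% of the tested probe sets) both 3 h arrays of each line lay on the same side of both 0 h arrays. The line-block fit gave 1 such call (0.00626%). Without regard to any test, 757 probe sets (4.74%) showed that separation in both lines in the same direction, 330 higher (2.06%) and 427 lower (2.67%). A separation of 2-fold or more in each line was met by 40 (0.25%), 31 of them higher (0.194%) and 9 lower (0.0563%).

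Most of these calls rest on having all 4 same-numbered pairs of arrays. SLY2, Prx37 and the probe set 251890_at passed the replicate-block fit whichever pair was left out. With all 23 arrays that fit also takes in the spread at the other times and in CEI cells. There 13 of the 20 kept their call, SLY2 and 251890_at among them. The named genes that lost it there were Prx37 (adjusted p = 0.0794), AT1G30600 (0.0514), SOL1 (0.065) and AT1G19900 (0.219). Of the 20, 3 kept their call without the SHR replicate 1 pair, 18 without the SHR replicate 2 pair, 14 without the SCR replicate 1 pair and 5 without the SCR replicate 2 pair. AT1G05370 (adjusted p = 0.0659) and AT1G19900 (0.101) lost theirs without SHR replicate 1 alone. The calls of AT1G30600, AT4G21870, LPR1, SCPL45 and AT4G11290 ended without SHR replicate 1 or SCR replicate 2, and those of SOL1 and ATGSTF13 also without SCR replicate 1, with adjusted p of 0.0612 to 0.149 in those fits. The differences themselves stayed between 1.44 and 1.72 for LPR1, 1.48 and 1.63 for AT1G30600 and 1.86 and 2.38 in size for ATGSTF13.

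**Figure D1:**
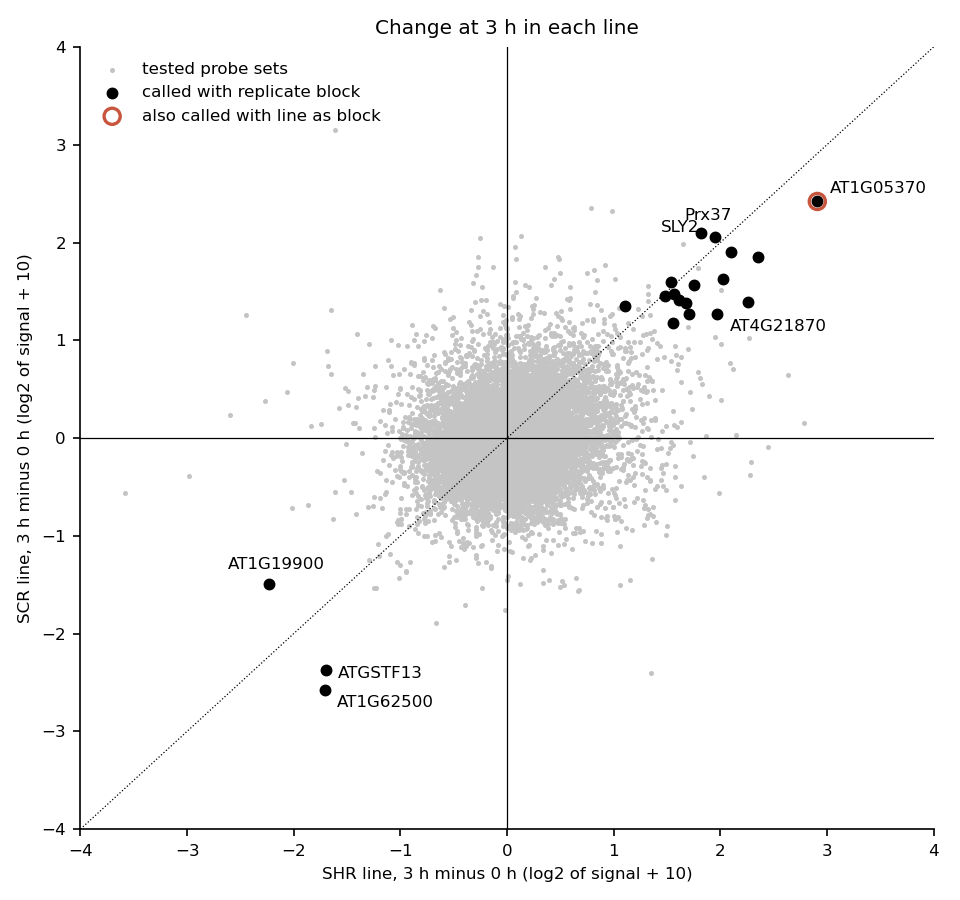
Difference between 3 h and 0 h in the SHR line (x axis) and the SCR line (y axis), both on the log2(signal + 10) scale, for each tested probe set (grey). Black points are the 20 calls with the replicate block, and the ring marks AT1G05370, the 1 call with line as a block. The black points lie in the upper right or lower left, which the selection by that fit favours.

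AT1G05370 had the largest rise among the named genes. Its signals were 116 and 98.9 on SHR arrays and 62.5 and 72.9 on SCR arrays at 3 h, against 10.5 and 1.83 on SHR arrays and 5.42 and 3.6 on SCR arrays at 0 h. All 4 arrays at 3 h stood far above all 4 at 0 h, and the 0 h signals lay below the 40th percentile of their arrays, which was 36.4 to 40.7. The pooled difference was 2.66 ± 0.27 (SE, n = 4 against 4, adjusted p = 0.0315 and 0.00441), with single-line values of 2.91 (SHR) and 2.42 (SCR). Because the 0 h signals are dim, the size depends on the constant added, with 3.95 for a constant of 1, which ended the call (adjusted p = 0.0674), and 1.66 for a constant of 32. The call with line as a block ended without either SHR 3 h array (adjusted p = 0.317 without replicate 1 and 0.178 without replicate 2) and without any 1 of the 4 SCR arrays (adjusted p of 0.113 to 0.233).

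Over the whole course, AT1G05370 in the SHR line stood at 6.59 and 1.91 at 1 h, 358 and 160 at 6 h and 81.5 and 117 at 12 h. In the SCR line it stood at 14.9 and 40.3 at 1 h, 33.0 and 131 at 6 h and 38.0 and 50.3 at 12 h. The SHR arrays at 1 h were thus within the range of the 0 h arrays and both SCR arrays at 1 h were above it. CEI cells had 45.1, 14.8 and 52.9.

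SLY2, also called SNEEZY, encodes an F-box protein related to SLY1, the F-box subunit through which gibberellin directs DELLA proteins, themselves GRAS factors, to degradation. Signals of SLY2 were 271 and 259 on SHR arrays and 263 and 338 on SCR arrays at 3 h, against 93.3 and 38.7 on SHR arrays and 61.8 and 65.4 on SCR arrays at 0 h. The lowest 3 h array was well above the highest 0 h array. With the replicate block SLY2 rose by 2.01 ± 0.21 (SE), with adjusted p = 0.0594 and 0.00441, the first of which just missed the threshold. With line as a block it passed with a constant of 32 (adjusted p = 0.0454), with quantile normalization (0.0434) or without the SHR 0 h replicate 1 array (0.0187). The lines differed by −0.11 in this change (95% interval −1.29 to 1.07). It stayed past the threshold of the replicate-block fit in all 11 further alternatives run with it.

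The SHR signals of SLY2 were 108 and 89.4 at 1 h, 609 and 448 at 6 h and 229 and 346 at 12 h. The SCR signals were 61.8 and 153 at 1 h, 69.1 and 499 at 6 h and 159 and 183 at 12 h. At 6 h the SCR arrays stood apart, and only the second was at the level of the SHR line. This split was not particular to SLY2. The SCR 6 h arrays had 76.2 and 528 for AT1G30600 and 244 and 1543 for 251890_at, while AT4G11290 went the other way with 750 and 454. CEI cells had 307, 157 and 268.

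AT1G30600, a subtilase (a serine protease of the secretory pathway), started from nearly equal levels in the lines. It had 355 and 266 on SHR arrays and 268 and 399 on SCR arrays at 3 h, against 102 and 96.8 on SHR arrays and 97.3 and 106 on SCR arrays at 0 h. The 0 h arrays of both lines lay close together, and every 3 h array was far above them. Its difference was 1.57 ± 0.19 (SE, adjusted p = 0.0594 and 0.00871). In CEI cells it had 575, 603 and 601, above every 3 h array.

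SOL1, a relative of the CXC-domain protein TSO1, had 101 and 47.8 on SHR arrays and 97.2 and 134 on SCR arrays at 3 h, against 17.5 and 10.6 on SHR arrays and 26.7 and 37.5 on SCR arrays at 0 h. The groups did not overlap, though the dimmest 3 h array (47.8) was near the brightest 0 h array (37.5). The difference was 1.66 ± 0.27 (SE, adjusted p = 0.178 and 0.0149). In the SHR line SOL1 was brightest at 6 h, with 203 and 121, when the SCR line had 39.0 and 166.

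Prx37, a class III peroxidase of the kind that cross-links or loosens wall polymers, had 443 and 245 on SHR arrays and 739 and 314 on SCR arrays at 3 h, against 127 and 57.4 on SHR arrays and 127 and 87.1 on SCR arrays at 0 h. Replicate 1 was the brighter in each of these groups, and the 4 same-numbered differences ran from 1.73 to 2.45. The pooled difference was 1.96 ± 0.34 (SE) with line as a block and carried an SE of 0.19 with the replicate block (adjusted p = 0.214 and 0.0044). Prx37 was already at 449 and 297 on SHR arrays and at 408 and 2851 on SCR arrays at 1 h.

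AT4G11290, a further peroxidase, was lower on the SHR than on the SCR arrays at both times. It had 94.1 and 66.9 on SHR arrays and 720 and 355 on SCR arrays at 3 h, against 28 and 14.1 on SHR arrays and 280 and 110 on SCR arrays at 0 h. Taken without regard to line, the 3 h and 0 h arrays overlapped, and within each line they did not. The same-numbered differences ran from 1.33 to 1.68, with a pooled value of 1.52 ± 0.33 (SE, adjusted p = 0.652 and 0.00894). At 1 h it had 126 and 76.3 on SHR arrays, each above the same-numbered 3 h array, and 398 and 199 on SCR arrays. Levels at 12 h were higher than at 3 h, at 441 and 166 on SHR arrays and 1392 and 992 on SCR arrays, beside 1318, 1611 and 1496 in CEI cells.

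LPR1, a multicopper oxidase of the root tip that takes part in the arrest of root growth under low phosphate, had 482 and 263 on SHR arrays and 284 and 398 on SCR arrays at 3 h, against 155 and 69.2 on SHR arrays and 141 and 107 on SCR arrays at 0 h. Every 3 h array was above every 0 h array. The difference was 1.53 ± 0.29 (SE, adjusted p = 0.334 and 0.0113). At 1 h LPR1 had 322 and 247 on SHR arrays and 240 and 262 on SCR arrays, already above every 0 h array. SCPL45, a serine carboxypeptidase-like protein, had 1603 and 757 on SHR arrays and 1080 and 1509 on SCR arrays at 3 h, against 496 and 304 on SHR arrays and 536 and 395 on SCR arrays at 0 h. It too had no overlap, and its difference was 1.47 ± 0.28 (SE, adjusted p = 0.334 and 0.012). At 1 h SCPL45 had 1932 and 1080 on SHR arrays and 931 and 855 on SCR arrays, also above every 0 h array.

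AT4G21870, a small protein of the HSP20-like chaperone family, had 181 and 124 on SHR arrays and 126 and 92.8 on SCR arrays at 3 h, against 41.6 and 22.2 on SHR arrays and 54.3 and 27.6 on SCR arrays at 0 h. The groups did not overlap, and the difference was 1.62 ± 0.28 (SE, adjusted p = 0.214 and 0.0174). Its course was short. In the SHR line it had 267 and 95.8 at 1 h and 32.2 and 48.0 at 12 h, and CEI cells had 9.18, 12.5 and 13.4, below every 0 h array.

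**Figure D2:**
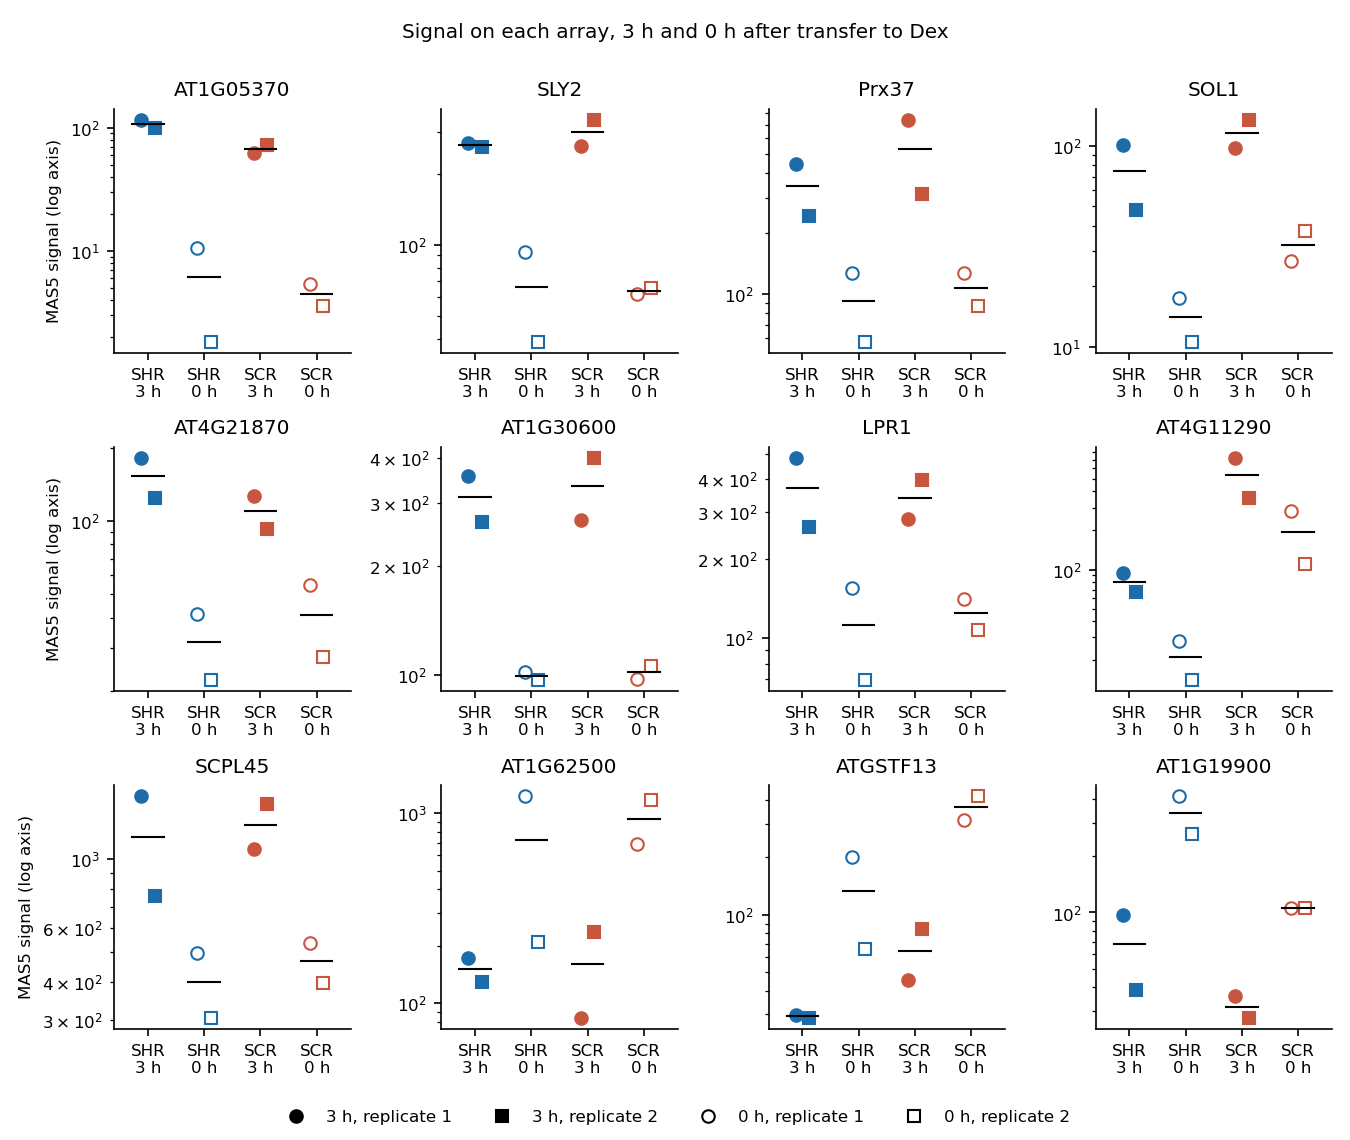
MAS5 signal (log y axis) on each of the 8 arrays for the 12 single-gene probe sets called with the replicate block, with 3 h left of 0 h in each line (filled 3 h, open 0 h, circle replicate 1, square replicate 2, bar the mean of 2 arrays). In every panel the 3 h and 0 h arrays of a line do not overlap, as with AT1G05370 at 116 and 98.9 against 10.5 and 1.83 in the SHR line.

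Of the 3 genes that fell with the replicate block, AT1G62500 is known as CO2, a marker of the root cortex. It had 173 and 129 on SHR arrays and 83.3 and 237 on SCR arrays at 3 h, against 1230 and 210 on SHR arrays and 690 and 1176 on SCR arrays at 0 h. Within each line the arrays did not overlap, but the SHR 0 h replicate 2 array, at 210, lay below the brightest 3 h array. At 1 h AT1G62500 had 255 and 129 on SHR arrays and 240 and 387 on SCR arrays. The difference between 3 h and 0 h was −2.15 ± 0.52 (SE, adjusted p = 0.967 and 0.0265), with same-numbered differences of −2.91 to −0.66. The call ended in the replicate-block fit without SHR replicate 1 (adjusted p = 0.166), SCR replicate 1 (0.122) or SCR replicate 2 (0.129).

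ATGSTF13, a phi-class glutathione transferase, had 29.9 and 28.6 on SHR arrays and 45.2 and 84.4 on SCR arrays at 3 h, against 201 and 66.5 on SHR arrays and 315 and 419 on SCR arrays at 0 h. Again the SHR 0 h replicate 2 array was the dimmest of the 0 h arrays, below the SCR 3 h replicate 2 array. ATGSTF13 fell by 2.03 ± 0.26 (SE) with the replicate block (adjusted p = 0.182 and 0.0113). Both 1 h arrays of each line were also below their 0 h arrays, at 39.6 and 51.7 on SHR arrays and 66.6 and 117 on SCR arrays. CEI cells held the highest levels, 997, 784 and 851.

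AT1G19900, related to the copper enzyme glyoxal oxidase, had 96.9 and 38.7 on SHR arrays and 35.9 and 27.4 on SCR arrays at 3 h, against 414 and 260 on SHR arrays and 106 and 106 on SCR arrays at 0 h. The brightest 3 h array was just under the dimmest 0 h array. Its difference was −1.86 ± 0.29 (SE, adjusted p = 0.178 and 0.00894). Its same-numbered differences ran from −2.47 to −1.33.

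The remaining 10 of the 22 named genes, which had the smallest p among single genes without overlap in either line, passed neither fit, with adjusted p of 0.214 to 0.967 and 0.0809 to 0.341. Among those with higher values at 3 h, AT2G26520 differed by 1.42 ± 0.24 (SE, adjusted p = 0.214 and 0.0809). AT5G45210, of the TIR-NBS-LRR class of disease resistance proteins, differed by 1.76 ± 0.34, from 0 h signals of 1.4 and 1.32 in the SHR line that are too dim to give a fold. AT5G59760, whose SHR 0 h replicate 2 signal of 6.82 lay apart from the other 0 h arrays, differed by 1.26 ± 0.28, the glycosyltransferase UGT73C7 by 1.16 ± 0.26 and the protein phosphatase AT1G07160, of the PP2C class, by 1.44 ± 0.33. AT1G07160 had 281 and 141 on SHR arrays at 1 h and 155 and 63.0 at 3 h, which overlap. Among those with lower values, TRM25 differed by −1.05 ± 0.23, AT5G65840 by −1.39 ± 0.31, AT2G25420 by −0.65 ± 0.17, AT3G08990 by −0.75 ± 0.19 and the asparaginase ASPGB1 by −0.84 ± 0.22. AT5G65840 was very dim at 3 h, with signals of 2.01 to 6.54.

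**Figure D3:**
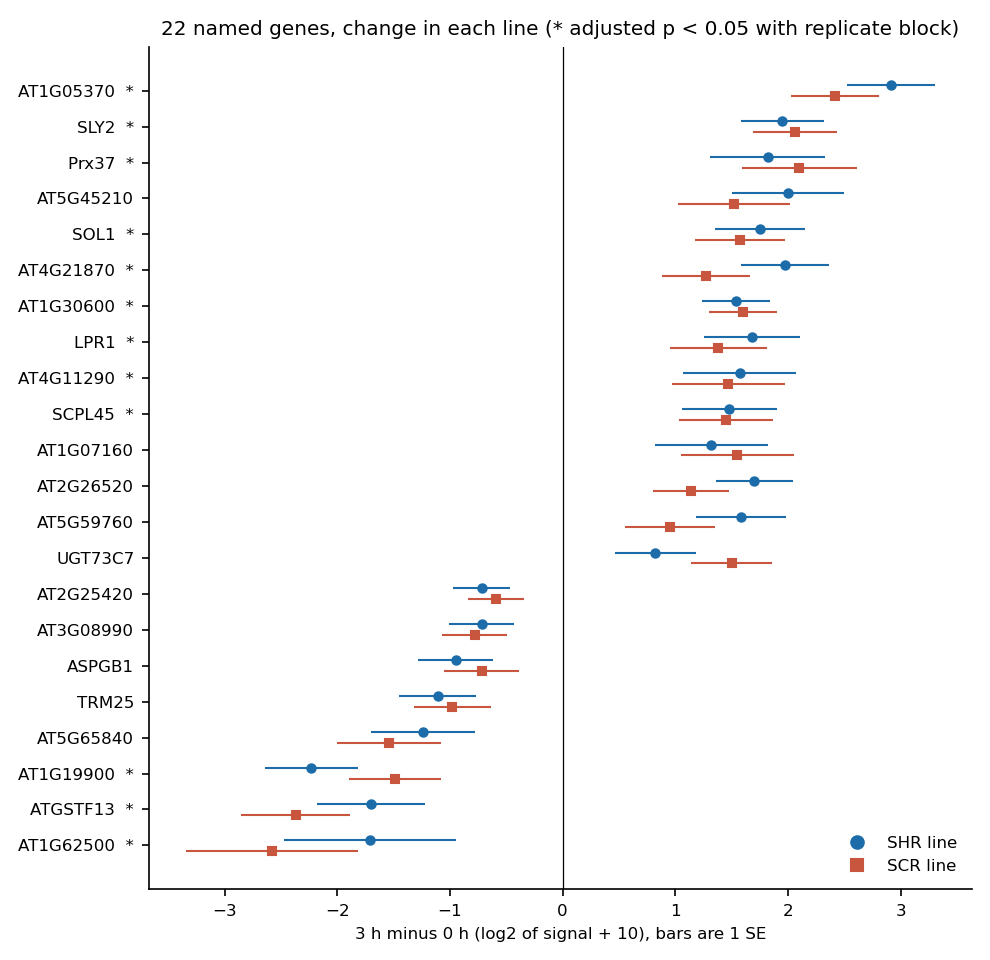
Difference between 3 h and 0 h (x axis, log2 of signal + 10) in the SHR line (circles) and the SCR line (squares) for the 22 named genes, with bars of 1 SE from the fit of 4 group means; an asterisk marks the 12 past the threshold with the replicate block. All 22 had arrays without overlap within each line, in the same direction, which fixes their sign. The pair of bars overlaps for each of the 22, which their selection by small p in the pooled fit favours.

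The 8 calls without a single gene are given by probe set, chosen after their values were seen. The probe set 251890_at had 1506 and 888 on SHR arrays and 946 and 1292 on SCR arrays at 3 h, against 375 and 125 on SHR arrays and 269 and 331 on SCR arrays at 0 h. It rose with the replicate block by 2.1 ± 0.20 (SE, adjusted p = 0.178 and 0.0044) and, like SLY2, kept its call in all 11 alternatives of that fit. Differences were 2.00 for 245576_at (adjusted p = 0.0648 and 0.0113), 1.83 for 255443_at (0.683 and 0.00967) and 1.82 for 258599_at (0.425 and 0.0242). For 246550_at the difference was 1.51 (adjusted p = 0.835 and 0.0272), with 31.7 on SHR 0 h replicate 2, apart from the other 0 h arrays. The others were 1.49 for 245234_at (adjusted p = 0.967 and 0.0186), 1.37 for 257805_at (0.178 and 0.0113) and 1.23 for 249516_s_at (0.967 and 0.0402). The last can bind transcripts of several genes and was the 1 call whose arrays overlapped within a line, with 202 and 105 at 3 h against 110 and 33.6 at 0 h in the SHR line.

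Each line was then taken alone. In limma 0 probe sets were called in the SHR line, beside 469 at unadjusted p under 0.05 (2.93%), and 0 in the SCR line, beside 294 (1.84%). Neither share is larger than that threshold would pass without any change. With the replicate block the SHR line gave 3 calls, 2 of them higher, and the SCR line 0. The lines share no array, so their directions can be set side by side. Of the 265 probe sets higher in the SHR line at unadjusted p under 0.05, 167 (63%) also had higher values in the SCR line, where 43.2% of all tested probe sets did. Of the 171 higher in the SCR line, 126 (73.7%) had higher values in the SHR line, where 49.3% of all tested did. In the other direction the shares stood nearer to those of all tested probe sets. Of the 204 lower in the SHR line, 129 (63.2%) also had lower values in the SCR line, where 56.8% of all tested did, and of the 123 lower in the SCR line, 73 (59.3%) had lower values in the SHR line, where 50.7% did. These shares were not tested.

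A difference between the lines in the 3 h change was called for 0 of 15983 probe sets in limma, beside 217 at unadjusted p under 0.05 (1.36%), and the lowest adjusted p was 1. Among the 20 shared calls the line difference ran from −0.74 to 0.88, and the lowest unadjusted p was 0.229. The replicate-block fit counts a line difference as residual spread, so its selection itself favours small line differences among the calls. The 95% intervals of the 20 all included 0 and reached as far as −2.11 and 3.3, so they take in line differences of 2-fold or more. By the smallest unadjusted p, 257807_at had an SHR minus SCR difference of 2.21, 265346_at of 2.56, 253614_at of 1.75, 251428_at of −4.76, AT3G12510 of −1.81 and AT5G12940 of −1.24, without a call.

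The SHR/SCR pathway list holds 15 loci, of which 6 were named and 4 tested. SLY2 was its 1 call with the replicate block, where 0.106% of all tested probe sets were called higher, and 0 were called with line as a block. JKD differed by 0.39 (0.30 SHR, 0.49 SCR), and AT1G14580, an IDD zinc finger known as BLUEJAY, by 0.53 (0.96 SHR, 0.10 SCR). AT5G41920 (SCL23), the GRAS protein closest to SCR, differed by 0.07 (0.28 SHR, −0.14 SCR). The list median was 0.46, beside −0.03 over all tested probe sets.

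Gibberellin signalling beyond SLY2 gave 0 calls in either fit among the 4 tested of 23 on its list. Of all tested probe sets 0.125% were called with the replicate block and 0.00626% with line as a block. At such shares 0 calls among a few members says little, here and for the lists below. The receptor GID1B differed by 0.65, GID1A by 0.36 and GID1C by 0.14, while SLY1 differed by −0.17. Of 46 auxin genes 9 were tested and 0 called in either fit. At unadjusted p under 0.05 with line as a block, where 2.18% of all tested were higher and 1.65% lower, 1 was higher and 1 lower. These were IAA18, an Aux/IAA repressor, at 0.77 and GH3.1, an auxin-conjugating enzyme of the GH3 family, at −0.76. A further Aux/IAA gene, IAA33, differed by −1.15 without a call. The cytokinin response regulators ARR15 and RR16, 2 of 19 on their list, differed by −0.94 and −0.53 without a call. Both were dim, at 1.58 to 44.6 and 8.75 to 56.0 on the 8 arrays, mostly near or below the 40th percentile of their array. Most signals of GH3.1 and IAA33 were also near or below it.

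Few division and replication genes were covered, with 3 of 23 on the G2/M list and 2 of 16 on the replication list tested. Of these 0 were called in either fit, where 0.125% of all tested were called with the replicate block. The Aurora kinases AUR1, AUR2 and AUR3, which act in mitosis, differed by −0.17, −0.06 and −0.32. Of the replication genes, PRL (an MCM helicase subunit) differed by 0.30 and ICU2 (the catalytic subunit of DNA polymerase alpha) by −0.08. The stress and wound genes WRKY53, STZ and WRKY6, 3 of 19 on their list, differed by 0.41, 0.35 and 0.15, again with 0 called in either fit.

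Marker lists of root tissues were set beside these results. Both cortex markers were tested, and where AT1G62500 fell with the replicate block, AT1G09750 had 612 to 1299 at 3 h against 268 to 938 at 0 h and differed by 0.54 without a call. Summed signal of the pair was 740 to 1536 at 3 h and 477 to 2167 at 0 h. Of 20 endodermis barrier genes 2 were named and tested: the receptor kinase GSO1 differed by 0.60 and AT1G61590 by 0.15, and their sum was 368 to 1338 at 3 h and 193 to 1148 at 0 h. The root hair expansins EXPA7 and EXPA18, 2 of 13 on their list, summed to 39.4 to 274 at 3 h and 35.1 to 420 at 0 h. The stele genes PHV and LHW, 2 of 17, summed to 717 to 957 at 3 h and 568 to 792 at 0 h, and each differed by 0.35. Without detection calls these signals do not show that each marker was present. Some were dim on some arrays, such as EXPA18 at 7.83 at 3 h and AT1G61590 at 24.3 at 0 h. No root cap marker was named, and the part of a changed cell mix in the calls above was not tested.

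Among enzyme families, 7 of 10 tested glutathione transferases had higher values at 3 h and 3 lower, with a median of 0.2 beside −0.03 over all tested. With the replicate block 0 were called higher, where 0.106% of all tested probe sets were. The 1 called lower was ATGSTF13, where 0.0188% of all tested were. GSTU27 of the tau class had the opposite sign, at 0.81 (adjusted p = 0.967 and 0.0847). Of 36 UDP-glycosyltransferases, enzymes that attach sugars to hormones and secondary metabolites, 27 had higher values at 3 h and 0 were called in either fit. Their median was 0.31 (0.37 SHR, 0.18 SCR) beside −0.03 over all tested. At unadjusted p under 0.05 with line as a block, 6 were higher and 0 lower, where 2.18% of all tested were higher and 1.65% lower. Of the 21 expansins and XTHs, which loosen or remodel the wall, 0 were called, with XTH16 at 1.27 (adjusted p = 0.967 and 0.0776) and EXPA8 at −0.66. The 68 probe sets of the plastid genome had a median of 0.06 (0.27 SHR, −0.13 SCR), and 0 were called.

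**Figure D4:**
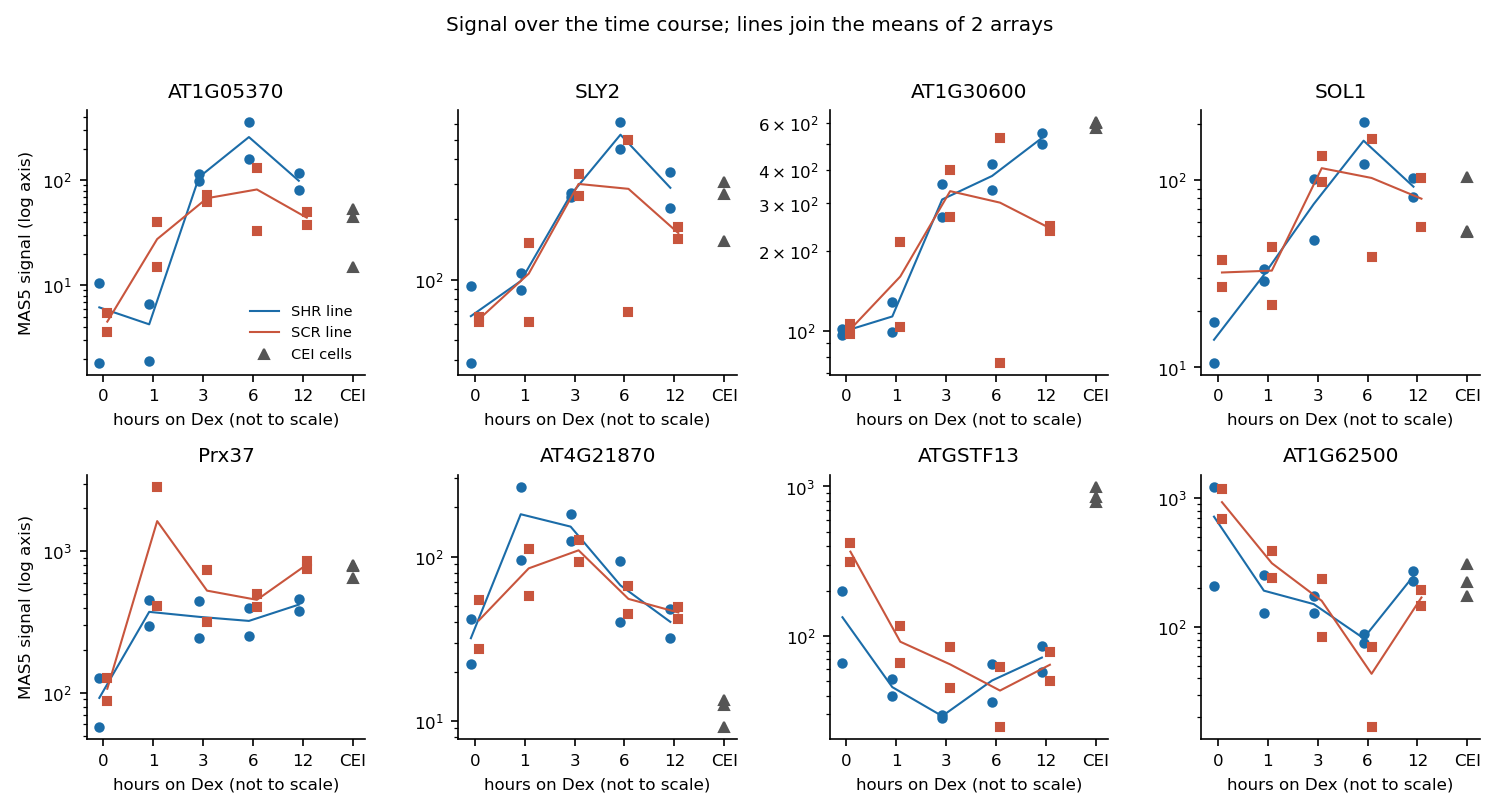
MAS5 signal (log y axis) of 8 genes at 0, 1, 3, 6 and 12 h on Dex in both lines and in CEI cells (points are arrays, lines join means of 2). AT1G05370, SLY2 and AT1G30600 in the SHR line were near their 0 h arrays at 1 h and above them at 3 h, whereas Prx37 and AT4G21870 were already above them at 1 h.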

How the data were processed

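RNA was measured on Affymetrix ATH1 arrays, 2 per line and time. The deposited values are linear signal intensities that the authors made with MAS5, per the submitters' processing notes; its version and detection calls are not given there. The mean between the 2nd and 98th percentile was 249.89 to 249.9 on the 8 arrays, so a common scaling per array was in place. From 22810 probe sets 64 controls were dropped. Intensities as deposited received a pseudocount of 10 and were taken to log2 without renormalizing. Tests covered the 15983 probe sets that exceeded their array's 40th percentile on 2 or more of the 23 arrays.

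limma 3.58.1 in R 4.3.3 (lmFit, eBayes with trend) was fitted to the 8 arrays with time and line, 5 residual degrees of freedom, two-sided, Benjamini-Hochberg adjusted over all tested probe sets at 0.05. Each line and the difference between lines came from a fit of 4 group means. The median SE was 0.241 (log2) for both lines together, 0.205 with the replicate block and 0.352 for 1 line. The number of arrays limits this precision. The arrays are biological replicates per the labels, and the p-values measure spread between them.

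Groups share replicate numbers in the titles. Deviations of same-numbered 3 h and 0 h arrays from their group means correlated at 0.465 (SHR) and 0.16 (SCR), over 4 pairs that give 1 distinct value a line. The SHR 3 h arrays correlated more with their own number (0.952 and 0.957) than with the other (0.900 and 0.936), and the SCR arrays at 0.956 against 0.943 and at 0.966 for both. The fit with line and replicate number as a block (3 residual degrees of freedom) is therefore printed beside the planned one. Where a named gene is given with a pair of adjusted p, the pair gives both fits.

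On simulated data built from these arrays, with independent noise on 15983 probe sets, both fits found 95% of 100 probe sets changed by 2 (log2). For 100 changed by 1 (log2) the share found was 44% with line as a block and 34% with the replicate block. The same runs gave 9 false calls with line as a block and 11 with the replicate block. The simulation held no array pairing, and its many planted changes ease the adjusted threshold, so its shares need not hold on the real arrays. In limma with line as a block, AT1G05370 was the 1 call on the real arrays. Real changes near 2 in size, such as SLY2 (2.01, adjusted p = 0.0594), Prx37 (1.96, 0.214) and AT1G62500 (−2.15, 0.967), were not called.

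Annotation gave 1 gene for 13513 probe sets, several for 503 and none for 8730, and of the tested ones 8850 (55.4%) had 1 gene. Locus names were matched to RefSeq genes of TAIR10.1. Of 356 loci on 21 lists, 48 were named and 42 tested; 28 families by symbol or genome were added. The lists jasmonate, abscisic acid, heat shock, nutrient response and root cap markers, and 8 families, had 0 tested members. Named were called single-gene probe sets, then up to 14 higher and 8 lower single genes of smallest p without overlap in either line, every tested SHR/SCR pathway gene, up to 3 per other list, and the 3 largest line differences each way by p. Members, lists and the comparison itself were chosen with earlier results of these data known. Alternatives were the pseudocount, the filter, quantile normalization, eBayes without trend, all 23 arrays in one fit, the replicate block and leaving out each array or pair. Alternatives to the replicate-block fit were chosen after seeing the data.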

Additional observations from a re-analysis of the deposited data

Results flagged for a closer look

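Among 66 sets of 4 arrays (3 h or 0 h) examined for the genes in the text, 2 had an array set apart by Dixon's 95% criterion. Both were the SHR 0 h replicate 2 array. AT5G59760 stood at 6.82 on it and at 20.4 to 23.1 on the other 0 h arrays, a gap of 0.874 of the range. The probe set 246550_at stood at 31.7 on it and at 105 to 122 on the others, a gap of 0.885 of the range. Each set mixes both lines and most of the genes were chosen by their values, so no chance rate is set beside these counts.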

How the results depend on the processing

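With line as a block, the count of 1 call became 0 with a pseudocount of 1, 2 with a pseudocount of 32 or quantile normalization, 3 with all 23 arrays in the fit and 20 with the replicate block, and 0 to 2 when 1 array was left out. It was 2 without either SHR 0 h array and 0 without any of the other 6. The count of calls whose arrays also did not overlap in either line was 0, 2, 2, 3 and 19 in the same order and 0 to 2 without an array. The SHR line alone gave 3 calls with the replicate block and 0 to 1 without an array; the SCR line and the line difference gave 0 in each setting. The 20 calls of the replicate-block fit became 5 with no filter (all 5 among the 20), 8 without trend (8 among the 20), 22 with all 23 arrays (13 among the 20), and 3 to 33 without a pair: 3 without SHR replicate 1, 33 without SHR replicate 2, 15 without SCR replicate 1 and 8 without SCR replicate 2. The remaining settings gave 20 or 21. The cause of these shifts was not tested, beyond fewer pairs or more probe sets tested. AT5G41920 turned to −0.01 without SHR replicate 2 (adjusted p = 0.99). Over the named genes with line as a block, 494 values kept direction and side of the threshold, 24 newly passed, 7 no longer passed and 0 turned; with the replicate block 285 kept them, 74 no longer passed and 1 turned.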
